A study of Drosophila melanogaster
Mus musculus with 6 samples.

Results

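Of the autosomal 10 kb bins that carried high H3K36me2 in cells with wild-type histone H3.1, a minority kept a sizeable amount of the mark when K36M histone was expressed, and these bins are described here. They were chosen by 3 conditions on the deposited values, namely at least 150 scaled reads of H3K36me2 in the wild-type line (WT), at least 40 in the K36M line, and a lower value in K36M than in WT. The conditions were met by 11748 of 232039 autosomal 10 kb bins (5.06%), out of 253926 intervals in the table. A scaled read is a sequencing read multiplied by 1 factor per library, taken to be the spike-in scaling, so that levels can be set side by side between lines. Both H3K36me2 libraries were used to choose the members, so their H3K36me2 values are descriptive, whereas their H3K27me3 values were not part of the choice.

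The cells were C3H10T1/2, mesenchymal progenitors from embryos of C3H mice, at passage 10 to 15. Both lines stably expressed a FLAG-HA-tagged H3.1, which was wild-type in WT and carried methionine in place of lysine 36 in K36M; how many clones each line represents is not stated in the labels. Mononucleosomes released by micrococcal nuclease were immunoprecipitated with antibodies against H3K36me2 or H3K27me3 after addition of chromatin from Drosophila S2 cells, which serves as an external reference between samples (ChIP-Rx). There was 1 library per mark and line, hence no replicate and no test between the lines; intervals given below are 95% intervals that cover counting error only, since reads counted without molecular identifiers may repeat a molecule. The 4 libraries held 29817968 to 59618463 reads, and the median member held 323 H3K36me2 reads in WT and 804 in K36M, but 23 H3K27me3 reads in WT and 53 in K36M.

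H3K36me2 is written mainly by the enzymes NSD1, NSD2, NSD3 and ASH1L and covers broad stretches of euchromatin, both within and between genes. SETD2 converts it to H3K36me3 in the bodies of transcribed genes. Histone with methionine at position 36 inhibits H3K36 methyltransferases and lowers methylation also on the histones that keep their lysine. H3K27me3 is written by Polycomb repressive complex 2, whose activity is poor on nucleosomes already methylated at lysine 36, so that the marks tend to occupy separate territory.

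H3K36me2 in the members was moderately high in WT and a fraction of that in K36M. The WT level had a median of 205 scaled reads per bin (interquartile range 175 to 252) and the K36M level a median of 62.7 (49.3 to 83.3). The middle 50% of members kept 22.1% to 42.2% of their WT level, and the ratio of the medians was 0.305. For comparison, the 80127 autosomal bins that had 150 or more in WT and less than 40 in K36M, called depleted bins below, went from a median of 272 to 7.88 and kept a median of 2.97%. Members were thus 12.8% of the 91919 autosomal bins at or above 150 in WT, and a remaining 44 such bins were not lower in K36M. The WT level of members lay in the lower range of these bins, since 23.7% of depleted bins were below the member median. Members, 5.06% of autosomal bins, held 23.9% of all autosomal H3K36me2 reads in K36M and 11.1% in WT. Without 15 bins of extreme signal described below, these shares were 22.0% and 7.55%. The much more numerous depleted bins also held 23.9% in K36M. Bins with at least 40 in K36M and a higher WT level under 150 were 4.67% of autosomal bins and held 20.1%. The K36M limit of 40 largely fixes the share of members in K36M, so nothing is read from it. With a pseudocount of 19.7 added before taking log2 ratios, 9212 of the 11748 members were lower in K36M by 2-fold or more, beside 89.8% of all bins tested, a count that the choice of members largely fixes.

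**Figure D1:**
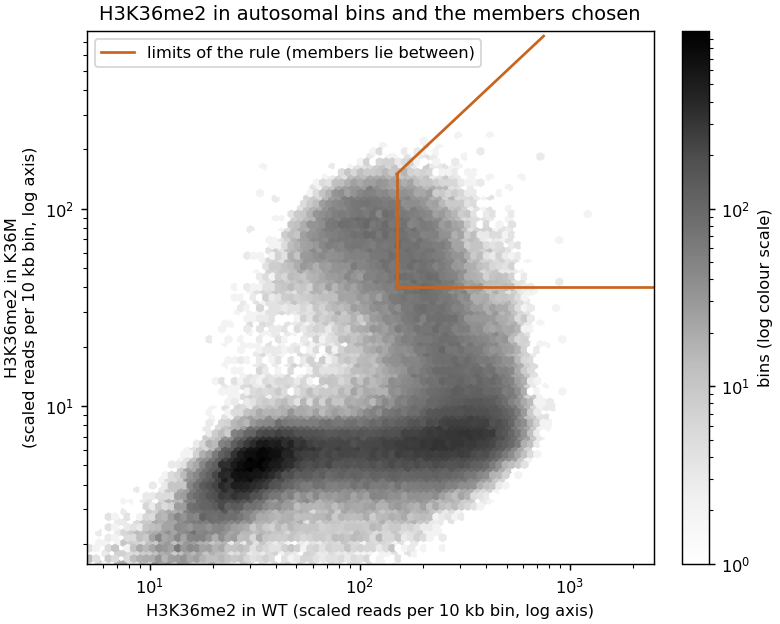
Each hexagon counts autosomal 10 kb bins by H3K36me2 in WT (x axis) and in K36M (y axis), both in scaled reads per bin on log axes, with the limits of the rule in orange; bins with extreme values lie outside the axes. Bins at 150 or more in WT are most numerous at K36M levels of 5 to 10 and thin out upwards without a gap. The 11748 members lie above the limit of 40, next to bins with similar K36M levels and less than 150 in WT.

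The size of the loss varied widely among members. A total of 5886 members (50.1%) kept between 25% and 50% of their WT level, 3848 kept between 10% and 25%, 1550 between 50% and 75%, and 280 kept 75% or more. The 184 that kept under 10% had a median WT level of 520, so they passed the K36M limit only because they started high. WT and K36M levels were weakly and inversely ordered across members (Spearman's rho of -0.15, from -0.35 to -0.05 over the 19 autosomes), within limits that the rule itself sets. The scaling matters for how these values are read. The factors of the H3K36me2 libraries differed 8.15-fold, and with read totals equalised between libraries instead, the ratio of member medians, K36M over WT, was 2.85 rather than 0.305, and 11512 of 11748 members (98.0%) lay higher in K36M than in WT, beside 50.2% of all autosomal bins. The K36M limit of the rule fixes most of that count, so nothing is read from it.

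Among the members were 15 bins that stood in the top 0.1% of autosomal bins in all 4 libraries. Their H3K36me2 was 1681 scaled reads or more in WT, they kept 3.24% to 10.8% of it, and 5 of them were on chromosome 9. The strongest, on chromosome 2 at 98500001 to 98510000 (mm9), had 949818 scaled reads of H3K36me2 in WT and 53088 in K36M, with 22936 of H3K27me3 in WT and 77332 in K36M. The group also included chromosome 9 at 3000001 to 3040000 and chromosome 11 at 3030001 to 3090000, at the centromere-proximal ends of the assembled sequence. The 15 bins held 46.9% of all H3K27me3 reads of the members in WT and 31.5% in K36M, so sums and means over members are given with and without them. Their level in input chromatin was not analysed here.

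H3K27me3, which the choice did not use, was low in the members in both lines. In WT its median was 2.51 scaled reads per bin (interquartile range 1.96 to 3.05), against 6.98 (3.92 to 13.4) in depleted bins and 5.67 over all autosomal bins. In K36M its median was 15.6 (10.9 to 22.7), against 36.9 (23.9 to 52.2) in depleted bins and 28.6 over all autosomal bins. A level below the member median was found in 9.93% of depleted bins in K36M and in 8.395% in WT. On each of the 19 autosomes the median of members was below that of depleted bins in both lines, at 0.293 to 0.426 of it in WT and 0.370 to 0.519 of it in K36M. The K36M medians of the chromosomes did not overlap, being 12.1 to 18.3 for members and 29.2 to 45.7 for depleted bins. These ratios between bins of 1 library do not depend on the library factors. The mean in K36M, which the extreme bins dominate, was 27.4 in members and 39.8 in depleted bins, a ratio of 0.690, which was below 1 on 17 of 19 chromosomes and 2.18 on chromosome 2. Without the 15 extreme bins the member mean was 18.8, a ratio of 0.473 with a range of 0.407 to 0.561 over chromosomes.

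**Figure D2:**
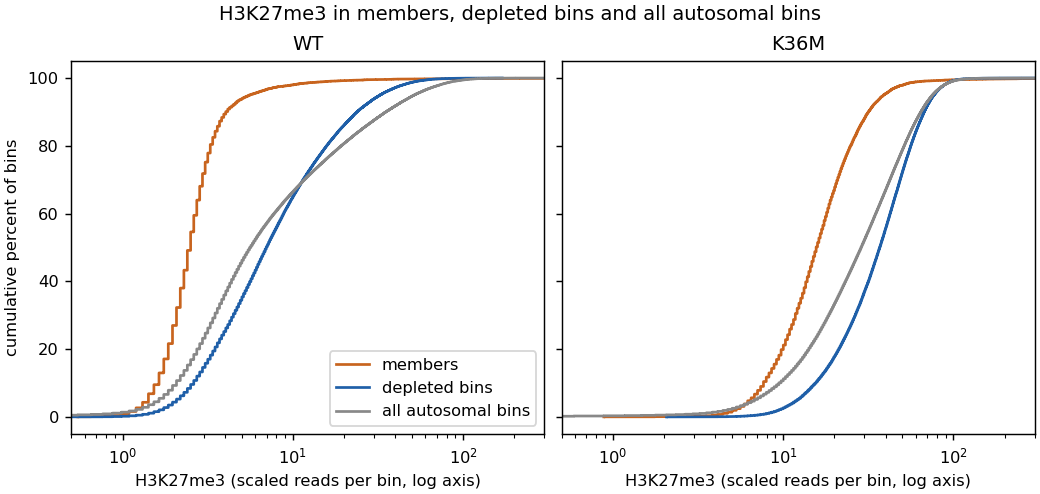
Cumulative percent of bins (y axis) against H3K27me3 in scaled reads per bin (x axis, log) for members, depleted bins and all autosomal bins, in WT (left) and K36M (right). In both lines the curve of the members lies to the left of that of depleted bins, with medians of 2.51 against 6.98 in WT and 15.6 against 36.9 in K36M.

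Although low, H3K27me3 was higher in K36M than in WT in 99.9% of members, near the 98.3% of depleted bins and 94.5% of all autosomal bins. The summed level was 4.67-fold higher (4.66 to 4.69), and 6.04-fold higher (6.01 to 6.06) without the extreme bins, with a ratio of medians of 6.24. In depleted bins the corresponding ratios were 3.69 of sums and 5.29 of medians, and over all autosomal bins they were 2.56 and 5.05. H3K27me3 was not higher in 14 members. With a pseudocount of 1.64 added before taking log2 ratios, and no filter on level, 11264 of 11748 members were at least 2-fold higher and 1 was at least 2-fold lower, beside 72.5% and 0.123% of all 248945 bins tested. With a filter at the 25th percentile of the mean level, 70.1% of all bins were higher, but only 4624 members passed, mostly through their K36M value, so their count is not read. A fold from a low start needs a smaller added amount, and members started lower than depleted bins. Scaled to library totals, the ratio of member medians was 2.46 and that of depleted bins 2.09, beside 1.99 over all autosomal bins. The direction thus held on that scale at a smaller size, and most of the ratio of medians was shared with autosomal bins in general. The ratio of sums was 1.84 in members, 2.38 without the extreme bins, and 1.46 in depleted bins. Over all autosomal bins it was 1.01, a value that equal totals hold near 1, so the ratio of sums was not shared in this way.

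Lower H3K27me3 in members was seen at matched WT levels of H3K36me2. Among bins at 150 to 200 scaled reads in WT, the median H3K27me3 in K36M was 13.3 in 5403 members and 29.5 in 17345 depleted bins, and in WT it was 2.29 and 11.7. At 200 to 300, the K36M medians were 17.4 and 32.7, at 300 to 400 they were 23.0 and 40.1, and at 400 to 600 they were 30.4 and 50.2. The ratio of members to depleted bins in K36M thus went from 0.450 to 0.606 with increasing WT H3K36me2. At 600 and over, where 81 members included all 15 extreme bins, the order was turned, with 90.9 against 66.8; without the extreme bins the member median there was 81.9. Members were 23.7% of bins at 150 to 200, 3.08% at 400 to 600 and 11.7% at 600 and over (9.52% without the extreme bins).

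The difference in K36M was smaller at matched H3K27me3 in WT. With bins at 150 or more of H3K36me2 in WT divided into quintiles of WT H3K27me3, and extreme bins left out, 67.3% of members lay in the lowest quintile and 1.04% in the highest. In the lowest quintile the K36M median was 13.6 in members and 20.1 in depleted bins, a ratio of 0.676, and in the fourth quintile it was 32.7 and 40.4, a ratio of 0.810. In the highest quintile 122 members had more than depleted bins, with 61.8 against 51.3. Weighting depleted bins to the members' classes of both WT marks, the ratio of mean H3K27me3 in K36M was 0.833 without the extreme bins, against 0.519 with classes of WT H3K36me2 alone; with the extreme bins it was 1.21. Depleted bins with the WT levels of members for both marks were thus nearer to members in K36M than depleted bins matched on WT H3K36me2 alone.

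Over all bins at 150 or more in WT, H3K27me3 in K36M declined with the amount of H3K36me2 left, except in the bins with the least. The median was 23.3 where less than 5 scaled reads of H3K36me2 were left, 43.1 at 5 to 10, 37.5 at 10 to 20, 25.7 at 20 to 30 and 21.8 at 30 to 40. Within members it went on declining, from 19.5 at 40 to 50 through 16.8 at 50 to 75 and 13.6 at 75 to 100 to 10.9 at 100 to 150 and 10.3 in the 181 members at 150 and over. There was no break at the limit of 40. In WT, median H3K27me3 also declined over the depleted classes, from 9.81 at 5 to 10 through 4.69 at 10 to 20 to 2.83 at 30 to 40, and was 2.40 to 2.62 over the classes of members. Across the 11748 members, Spearman's rho between the marks in K36M was -0.34, negative on each of the 19 autosomes (-0.54 to -0.23), while H3K36me2 in K36M and H3K27me3 in WT had a rho of -0.10. Across depleted bins the corresponding values were -0.02 with H3K27me3 in K36M and -0.44 with H3K27me3 in WT. H3K27me3 in K36M was ordered more strongly by the WT levels. In members its rho was 0.48 (0.39 to 0.58 over autosomes) with WT H3K27me3 and 0.39 (0.27 to 0.46) with WT H3K36me2. In depleted bins these were 0.49 and 0.31. Median WT H3K36me2 of members also went from 219 at 40 to 50 to 191 at 100 to 150, and was 235 at 150 and over. Bins share their libraries and are not independent, so these values are descriptive. The ratio of H3K27me3 medians, K36M over WT, was smallest where the least H3K36me2 was left, at 3.05 under 5 scaled reads and 4.39 at 5 to 10. It was 8.12 at 20 to 30, 7.44 at 40 to 50 and 3.95 at 150 and over. With read totals equalised, the same 5 ratios were 1.21, 1.73, 3.20, 2.94 and 1.56.

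**Figure D3:**
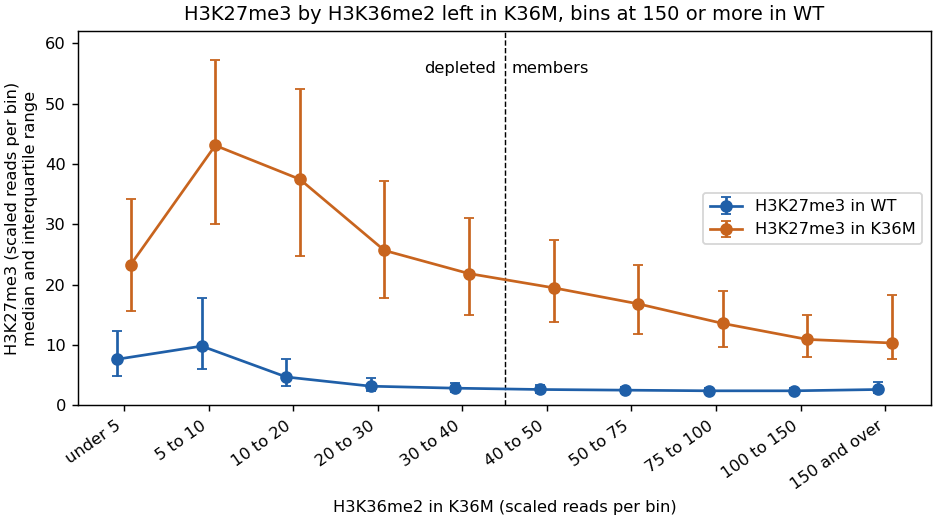
Median H3K27me3 in scaled reads per bin (y axis; bars are the interquartile range) by class of H3K36me2 in K36M (x axis), for bins at 150 or more of H3K36me2 in WT; the dashed line separates depleted bins from members. In K36M the median goes from 43.1 in the class of 5 to 10 to 10.3 in the class of 150 and over, while WT medians among members stay at 2.40 to 2.62.

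Of the 11748 members, 8237 (70.1%) had another member in an adjoining bin. Members can lie only in bins at 150 or more in WT, which themselves form runs and of which they were 12.8%, and no expected share was computed. Members formed 5858 uninterrupted runs, of which 3511 were single bins, 1910 had 2 to 4 bins, 362 had 5 to 9 and 75 had 10 or more, up to 550 kb. Longer runs carried more H3K36me2: the median was 189 in WT and 55.1 in K36M for single bins, and 246 and 78.2 in runs of 10 bins or more. The share kept was nearly the same, at 28.4% and 31.6%. H3K27me3 in K36M also differed little, with medians of 16.2 in single bins, 15.6 in runs of 2 to 4, 15.0 in runs of 5 to 9 and 17.1 in the longest class. In runs of at least 3 bins, outer and inner bins had the same median of 15.3.

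The K36M level of H3K36me2 declined within 100 kb of members, over which the WT medians stayed in a narrow range. Non-members at 150 or more in WT have less than 40 in K36M by the rule, apart from the 44 that were not lower, so part of the first step is fixed by the choice. At 10 kb from the nearest member, the median K36M level was 34.6, at 20 kb 21.3, at 50 kb 9.36 and at 100 kb 7.49, while the WT medians were 167, 181, 186 and 167. H3K27me3 in K36M went the other way, from 15.6 in members to 17.7 at 10 kb, 25.1 at 20 kb, 39.5 at 50 kb and 44.8 at 100 kb. In WT it went from 2.51 through 2.83, 3.60 and 7.74 to 11.6 at the same distances. Depleted bins alone, which share the high WT level, had 33.0 scaled reads of H3K27me3 in K36M at 10 kb and 44.5 at 50 kb from a member. Over 500 kb from any member, the median WT H3K36me2 of all bins was 34.98, and the depleted bins there had 24.2 of H3K27me3 in K36M. Run by run, 429 runs of 5 bins or more had at least 3 non-member bins within 50 kb, and mean H3K27me3 in K36M was lower inside than in this flank in 365 of them (85.1%). Against depleted bins only, it was lower inside in 335 of 353 runs (94.9%), with medians of 16.3 inside and 42.6 in the flank. In WT it was lower inside in 343 of the 353, with medians of 2.48 and 7.00. The WT H3K36me2 of these runs was also lower than that of the adjoining depleted bins in 303 of 353, with medians of 224 and 307.

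**Figure D4:**
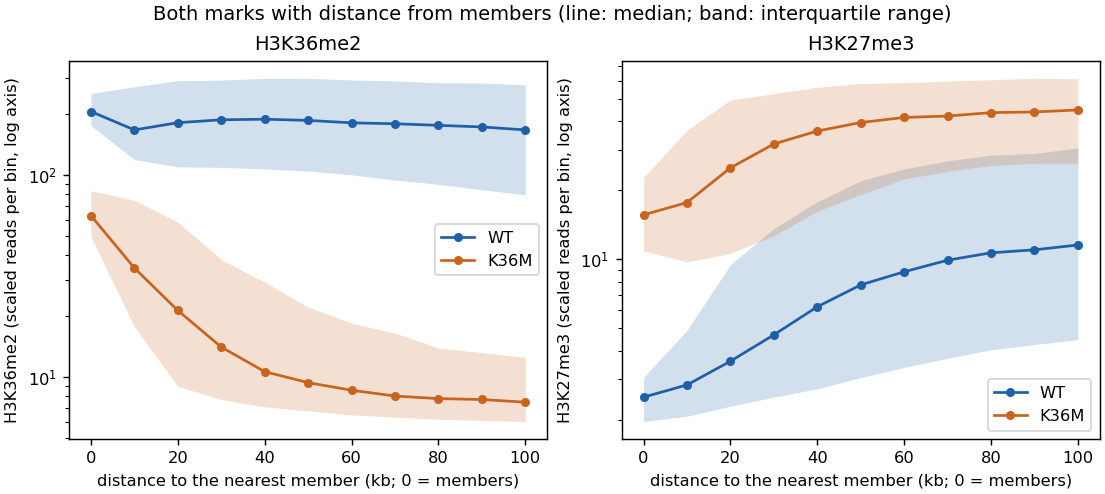
Median (line) and interquartile range (band) of H3K36me2 (left) and H3K27me3 (right), in scaled reads per bin on log axes, by distance to the nearest member in kb, with the members at 0. In K36M, H3K36me2 goes from 62.7 in members to 7.49 at 100 kb while H3K27me3 goes from 15.6 to 44.8; WT H3K36me2 stays between 167 and 205.

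The longest run lay on chromosome 16 at 24450001 to 25000000 (mm9) and showed these contrasts within 1 locus. Over its 55 bins, H3K36me2 had a median of 277 in WT (lowest 167, highest 382) and of 90.2 in K36M (lowest 45.3, highest 154). The mean in K36M was 34.1% of that in WT (33.6% to 34.6%). H3K27me3 was 1.31 to 4.03 in WT and 9.44 to 38.4 in K36M, so the lines did not overlap on the deposited scale. With read totals equalised, the lowest K36M value fell below the highest WT value. The mean was 7.79-fold higher (7.31 to 8.30) at 19.9 scaled reads, and 3.07-fold higher with read totals equalised. Of all autosomal bins, 94.5% were higher in K36M on the deposited scale. Another 4 members preceded the run, separated from it by an interval of other width that was left out. The 14 non-members within 200 kb before the run had a mean of 470 scaled reads of H3K36me2 in WT and 10.3 in K36M, and H3K27me3 of 8.24 in WT and 74.2 in K36M, against 2.55 and 19.9 inside. The 17 non-members after it had 368 and 10.8 of H3K36me2, and H3K27me3 of 26.1 in WT and 60.1 in K36M, so the flanks had more H3K27me3 than the run in both lines. On the near side the change took place between adjoining bins. In the last bin before the members the K36M levels were 13.3 of H3K36me2 and 80.5 of H3K27me3. In the next bin, the first member, they were 67.7 and 15.0. WT H3K36me2 went from 471 to 249 in the same step. At the far end, H3K36me2 in K36M went from 45.3 to 15.4 and H3K27me3 from 34.5 to 78.5 between adjoining bins.

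**Figure D5:**
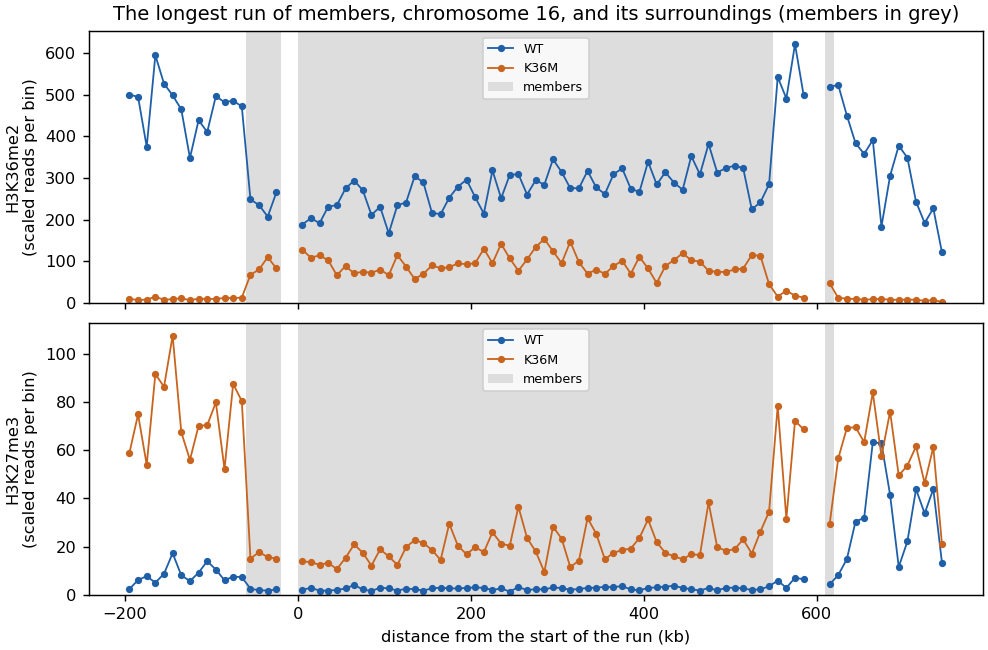
H3K36me2 (top) and H3K27me3 (bottom) in scaled reads per bin for each 10 kb bin, by distance in kb from the start of the longest run of members on chromosome 16; members are shaded and gaps are intervals of other width. Outside the shaded bins WT H3K36me2 is mostly higher, H3K36me2 in K36M is near 0 on this scale, and H3K27me3 in K36M is mostly above the 9.44 to 38.4 seen inside.

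The other runs among the 8 longest were similar in level. Chromosome 15 held a pair of them, at 52920001 to 53180000 and at 3320001 to 3540000. One was on chromosome 13 (45720001 to 46040000), one on chromosome 2 (68700001 to 68950000) and one on chromosome 11 (107980001 to 108210000). The last were on chromosome 17 (75580001 to 75790000) and chromosome 19 (16210001 to 16420000). Over all 8 runs, mean H3K36me2 was 221 to 370 in WT and 61.4 to 94.6 in K36M, and 23.7% to 35.6% was kept. Mean H3K27me3 was 2.11 to 4.44 in WT and 13.3 to 23.5 in K36M, always below the autosomal medians of 5.67 and 28.6. The run on chromosome 13 had the lowest H3K27me3 in K36M, with 7.38 to 20.4 over its 32 bins. The run on chromosome 19 kept the least H3K36me2, 23.7% (23.1% to 24.3%), and had the highest mean H3K27me3 in K36M. The run on chromosome 17 had the highest H3K36me2 in both lines and the smallest H3K27me3 ratio, 4.74-fold (4.36 to 5.15), from the highest WT level. Scaled to library totals, H3K27me3 in these 8 runs was 1.87-fold to 3.91-fold higher in K36M, and H3K36me2 was 2.21-fold to 3.33-fold higher.

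Members occupied only a part of most WT domains of 50 kb or more that held any, whereas many shorter domains consisted of members alone. The 9418 shorter domains had only 17786 bins, and a domain of 1 bin that holds a member consists of members by definition. Domain length thus partly fixes this contrast. Runs of bins at 150 or more in WT numbered 14770, of which 4679 (31.7%) held at least 1 member, and 1491 consisted of members alone. Among the 5352 such domains of 50 kb or more, 102 consisted of members alone. Members were 18.6% of the bins in domains under 50 kb and 6.60% in the 114 domains of 500 kb or more. The outermost bins of a domain held 42.3% of members and 24.96% of depleted bins. The shares of outermost and inner bins that were members were 19.4% and 15.3% in domains under 50 kb. They were 21.1% and 12.1% in domains of 50 to 190 kb, which held 47.5% of members. At 200 to 490 kb they were 18.6% and 8.10%, and at 500 kb or more 19.7% and 6.21%. Members had less WT H3K36me2 than depleted bins in each class of domain length, from 181 against 195 in the shortest to 266 against 385 in the longest.

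The frequency of members differed between chromosomes. Their levels are bounded by the rule, so the spread of levels is not compared with that of the frequency. Members were 5.90% of the bins at 150 or more on chromosome 3 and 18.9% on chromosome 16, with 18.6% on chromosome 17 and 17.1% on chromosome 19 next. On chromosome 11 they were 15.5%, on chromosome 13 10.5% and on chromosome 7 10.1%. Median H3K36me2 in K36M ranged from 53.7 on chromosome 7 to 69.9 on chromosome 1, and the median share kept from 27.4% to 33.8%. The first 5 Mb of each autosome contained 598 members (14.5% of its bins at 150 or more) and the last 5 Mb 559 (14.3%), near the 12.8% of all autosomes.

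Single members at the ends of the distribution showed how far the levels went. The member that kept most, on chromosome 8 at 105250001 to 105260000, had 177 scaled reads of H3K36me2 in each line, with 99.92% kept (88.2% to 113%), and H3K27me3 of 2.29 in WT and 6.20 in K36M. The next 4, on chromosomes 11 (86140001 to 86150000), 15 (6340001 to 6350000), 14 (62260001 to 62270000) and 16 (23530001 to 23540000), kept 99.4% to 99.90%. Apart from the extreme bins, the highest H3K36me2 in K36M was 685, on chromosome 15 at 74910001 to 74920000, where WT had 6833. The following bins were on chromosome 8 at 19990001 to 20010000, with 386 and 455 in K36M against 406 and 469 in WT, on chromosome 10 at 21860001 to 21870000, with 377 against 1942, and on chromosome 1 at 33840001 to 33850000, with 307 against 598.

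A stretch of chromosome 8, from 19920001 to 20040000, departed from the low H3K27me3 of most other members. Its 8 members had 26.2 to 213 scaled reads of H3K27me3 in WT and 147 to 503 in K36M, and included the 3 members with the most H3K27me3 in K36M outside the extreme bins. Their H3K36me2 in WT, at 265 to 953, was above the member median of 205. In K36M it was 49.1 to 455, on both sides of the member median of 62.7. Those same 3 members had 49.7 to 90.2 of H3K36me2 in K36M and kept 10.8% to 18.7%. High H3K27me3 was not confined to this stretch. Outside the extreme bins, 36 members were in the top 10% of autosomal bins for WT H3K27me3, with a K36M median of 128. Of these, 9 lay on chromosome 8. The member on chromosome 15 at 74910001 to 74920000 had H3K27me3 of 117 in WT and 305 in K36M. At the other end, the member with the least H3K27me3 in K36M was on chromosome 7 at 119440001 to 119450000, with 0.885 scaled reads from 3 sequencing reads, against 1.74 in WT. Its ratio of 0.507 had a counting interval of 0.158 to 1.63. The next members had 1.48 on chromosome 3 at 52860001 to 52870000 and 1.77 on chromosome 2 at 128180001 to 128190000. Outside the extreme bins, 568 members had WT H3K27me3 at or above the autosomal median; their median went from 8.28 in WT to 34.96 in K36M, and 43.5% were single bins, against 29.2% of the other members.

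The limit on the K36M level cut through a continuous range. Just inside it, 30 members tied at 40.01 scaled reads of H3K36me2 in K36M, and the first 5 in genome order had 204 to 345 in WT, and H3K27me3 of 11.8 to 38.1 in K36M. Just outside it, 25 bins tied at 39.94, and the first 5 had 158 to 447 in WT, and H3K27me3 of 11.8 to 52.2 in K36M, so the groups overlapped. Residual H3K36me2 was also found below the WT limit: 10839 autosomal bins with less than 150 in WT had at least 40 in K36M and less than in WT. These had a median H3K36me2 of 111 in WT and 66.1 in K36M, kept a median of 65.7%, and had still lower H3K27me3 than members, at 2.07 in WT and 9.15 in K36M.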

How the data were processed

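The deposited table gives a signal per genomic interval for 4 immunoprecipitated libraries, which is the authors' scaled coverage: every value was a whole multiple (within 0.01 of a read) of 1 step per library, 0.636 and 0.078 for H3K36me2 and 0.109 and 0.295 for H3K27me3 (WT, K36M), so reads were recovered by division. The submitters' processing notes name Bowtie 1.0.0 with builds mm9 and dm6; how the authors counted and filtered reads and made the factors is not given in the sources used. Per the labels' protocols, the fly chromatin equalled 5% of the mouse chromatin, but another label states equal mixing of cells. Both inputs carry H3.3 in their titles and H3.1 in their genotypes; inputs were not analysed here. Coordinates are mm9 and 1-based.

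Only 10 kb rows of chromosomes 1 to 19 were used. The 4659 intervals of other widths were left out and interrupt runs. Reads of the median member give 95% counting half-widths of 10.9% and 6.91% for H3K36me2 and 40.9% and 26.9% for H3K27me3 (WT, K36M). Ratios of sums carry Wilson intervals from the split of reads. The size rule used all 248945 10 kb bins with signal and, as pseudocount, the 5th percentile of WT values. Regions named were the 8 longest runs, the 5 members with the highest K36M level and the 5 with the highest share kept, the 3 with the highest and the 3 with the lowest H3K27me3 in K36M (bins extreme in all libraries apart), and the first 5 in genome order of the bins tied on either side of the K36M limit. The chromosome 8 stretch was chosen after its values were seen, as were the classes of run length, domain length and share kept, the comparison of runs with their flanks, and the use of medians by distance where means were planned. The members and lists were chosen with earlier results of these data known. No mouse gene annotation or genome was used here, so regions are given by position and planned gene lists were not applied. Scripts were tested on simulated data. Software was matplotlib 3.10.9, scipy 1.17.1, pandas 2.3.3 and numpy 2.4.6 under Python 3.11.15.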

Additional observations from a re-analysis of the deposited data

How the results depend on the processing

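Each comparison rests on 1 library per mark and line, so no replicate was left out, and no input was used. No paired analysis was possible because each group has 1 library and no test was made. The 5 results were recomputed under alternatives that gave 44 values. Of these, 18 lay within the tolerance, 24 outside it and 2 on the other side of 1. Members over depleted bins gave 13 of the 18, under a wide tolerance, and scaling to library totals cannot alter that ratio. The tolerance was 1.5 times for the number of members, the counting interval for the H3K27me3 ratio of the lines and for shares, and for members over depleted bins the standard deviation over chromosomes of 0.408, which chromosome 2 widens; leaving out the bins extreme in all libraries was chosen after seeing the data.

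The number of members, 11748, was 6374 with a K36M limit of 60, 18661 with a WT limit of 100 and 6345 with a WT limit of 200. The summed H3K27me3 ratio of K36M over WT, 4.67, was 1.84 scaled to library totals, 6.24 from medians, 6.26 without bins in the top 0.1% of any library, 6.04 without those extreme in all 4, 5.50 in runs of 2 or more bins, 4.03 in single bins, 5.04 and 4.01 with K36M limits of 30 and 60, 4.66 and 4.46 with WT limits of 100 and 200, and 4.86 after background subtraction. Leaving out each chromosome gave 4.601 to 5.25. For single bins the summed ratio was 5.63 without the 3 extreme bins among them. Their ratio of medians was 6.47, against 6.27 to 6.82 in the classes of longer runs. The ratio of mean H3K27me3 in K36M, members over depleted bins, was 0.690, and 0.534 to 0.716 leaving out each chromosome. With WT limits of 100 and 200 it was 0.549 and 0.927, and with K36M limits of 30 and 60 it was 0.662 and 0.839, all with the extreme bins. It reversed to 1.12 for single members, which was 0.491 without the 3 extreme bins among them, and to 1.21 within classes of both WT marks, which was 0.833 without extreme bins.

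The planned share for the 2-fold rule counts only the 4624 members that passed a filter on the mean level, mostly through their K36M value, so it is no support for a rise. This share, 98.3% beside 70.1% of all bins, was 97.0% with the median as pseudocount, 95.9% with no filter, 95.1% with a filter at the 50th percentile, 99.2% at 1.5-fold and 73.7% scaled to library totals, beside 64.8%, 72.5%, 62.2%, 81.3% and 30.6% of all bins. The share of members with an adjoining member, 70.1%, was 78.1% with a gap of 1 bin allowed, and 72.6% and 64.1% with K36M limits of 30 and 60.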
